A study of Homo sapiens with 6 samples.

Results

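The cytosolic ribosomal protein genes were examined in PANC-1 cells, an established human line of pancreatic carcinoma, with or without maslinic acid (MA), a plant triterpenoid. They were taken as the rows of the deposited table whose gene name is RPL or RPS followed by a number, with at most an A or X after it, together with RPLP0 to RPLP2 and RPSA, so that pseudogenes were left out. This gave 77 genes of 58825 in the table, 46 of the large subunit (RPL names) and 31 of the small subunit (RPS names and RPSA), each name occurring once. The groups were MA PANC-1 1 to 3, which received 40 μM MA during 24 h before RNA-seq, and PANC-1 1 to 3, at 0 μM, and the labels name no other agent or gene change in either. The methods of the study call the RNA-seq replicates biological and describe its experiments in general as independent, while the labels are silent on separate cultures, so a p-value here measures the spread between these samples.

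The cytosolic ribosome is built from a large and a small subunit, each an rRNA core covered by ribosomal proteins. The proteins are needed in matched amounts, and their mRNAs are among the most abundant in any growing cell. Most of these mRNAs begin with a 5′ terminal oligopyrimidine (TOP) tract, a C followed by further C and T bases, through which mTORC1 and LARP1 set their translation. Free RPL5 and RPL11, joined with 5S rRNA, can bind the ubiquitin ligase MDM2 and hold back its activity. The translation of these mRNAs is not seen in RNA-seq, which gives only the share of each mRNA in a library. A lower amount of total RNA per cell and an unchanged one therefore cannot be told apart.

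The starts of 10 genes, 30 bases each, are shown to make this shared feature visible, from the RefSeq promoter table (GRCh38.p14). Each is the gene's own strand 5′ to 3′, with 15 bases before the annotated start and 15 from it, and capitals mark the unbroken run of C and T that begins at the start base.
RPS16 (chr19:39435935-39435964, minus strand): gtggcccctagctttCCTTTTCCggttgcg
RPS12 (chr6:132814554-132814583, plus strand): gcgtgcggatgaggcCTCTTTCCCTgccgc
RPS18 (chr6:33272060-33272089, plus strand): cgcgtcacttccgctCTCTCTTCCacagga
RPS6 (chr9:19380222-19380251, minus strand): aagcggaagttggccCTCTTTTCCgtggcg
RPSA (chr3:39406705-39406734, plus strand): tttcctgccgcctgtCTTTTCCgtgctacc
RPL41 (chr12:56116618-56116647, plus strand): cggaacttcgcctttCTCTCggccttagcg
RPLP0 (chr12:120201097-120201126, minus strand): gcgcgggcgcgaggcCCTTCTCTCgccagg
RPLP2 (chr11:809952-809981, plus strand): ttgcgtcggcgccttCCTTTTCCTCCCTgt
RPL11 (chr1:23691791-23691820, plus strand): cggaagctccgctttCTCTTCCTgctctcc
RPL19 (chr17:39200268-39200297, plus strand): tgggctctccccttcgcagataatgggagg

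The first 9 begin with C and run for 5 to 13 pyrimidines from the start, while the RPL19 window has none at the annotated base. A window was counted as a TOP start when its start base was C and the next 4 bases were each C or T, read on the gene's strand only. Of the 77 genes, 62 matched the table by symbol, and 46 of these 62 (74.2%) had at least 1 such start, 28 of 38 in the large and 18 of 24 in the small subunit. The same letters stood at the start of 4.07% of all 35116 promoters in the table, and 7.18% of the 10572 tested genes that matched had at least 1. A match describes the annotated start, and no match says only that these letters are not at that base. All 77 genes carried the KEGG ribosome pathway in the deposited annotation, which 134 genes carry in all. They lay on 21 chromosomes, with 12 of the 77 on chromosome 19 (15.6%, against 8.02% of the tested protein-coding genes).

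The totals of the deposited estimated counts were 56978375, 63984133 and 58181114 for the MA PANC-1 samples, in order of replicate, whereas PANC-1 reached 70275355, 65607669 and 59422939. Every ribosomal protein gene had at least 5602 counts in every sample, up to 433588, so the spread between replicates and not counting error set the precision. The cell line's markers were checked beside them. KRT18 had a mean of 325 FPKM in PANC-1 and 295 FPKM in MA PANC-1, KRT8 213 and 183, and VIM 665 and 569, whereas KRT7 was at 2.03 and 1.57 FPKM and the ductal keratin KRT19 at only 0.0199 and 0.0866 FPKM. Of 11 markers of other cell types (blood, endothelial, acinar, islet and liver cells), 10 were under 0.1 FPKM in the mean of either group, and the exception was CD68, a lysosomal protein gene, at 31.1 and 30.2 FPKM. MA PANC-1 2 stood apart from the other 5 libraries before any test: its TMM factor was 0.942, against 1.004 to 1.018 elsewhere, and the mean GC content of its counted genes, weighted by count, was 52.2%, against 50.9% to 51.4%. Below, a log2 fold change of a single gene that is 0.1 or more in either direction and moved by over 1.5 times without this library is also given without it.

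Ribosomal protein mRNA was abundant in all 6 samples. It took 5.96%, 6.20% and 5.96% of all counts in MA PANC-1 1, 2 and 3 and 5.86%, 6.08% and 5.65% in PANC-1 1, 2 and 3. The means were 6.04% ± 0.139 and 5.86% ± 0.220 (SD, n = 3 each), and the groups overlapped, since PANC-1 2 lay above MA PANC-1 1 and 3. The large subunit genes took 3.25% ± 0.0335 of the counts in MA PANC-1 and 3.19% ± 0.107 in PANC-1, and the small subunit genes 2.79% ± 0.112 and 2.68% ± 0.117 (SD, n = 3 each). The median ribosomal protein gene, at 166 FPKM over the 6 samples, lay above 99.0% of the genes tested, whose own median was 2.49 FPKM.

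**Figure D1:**
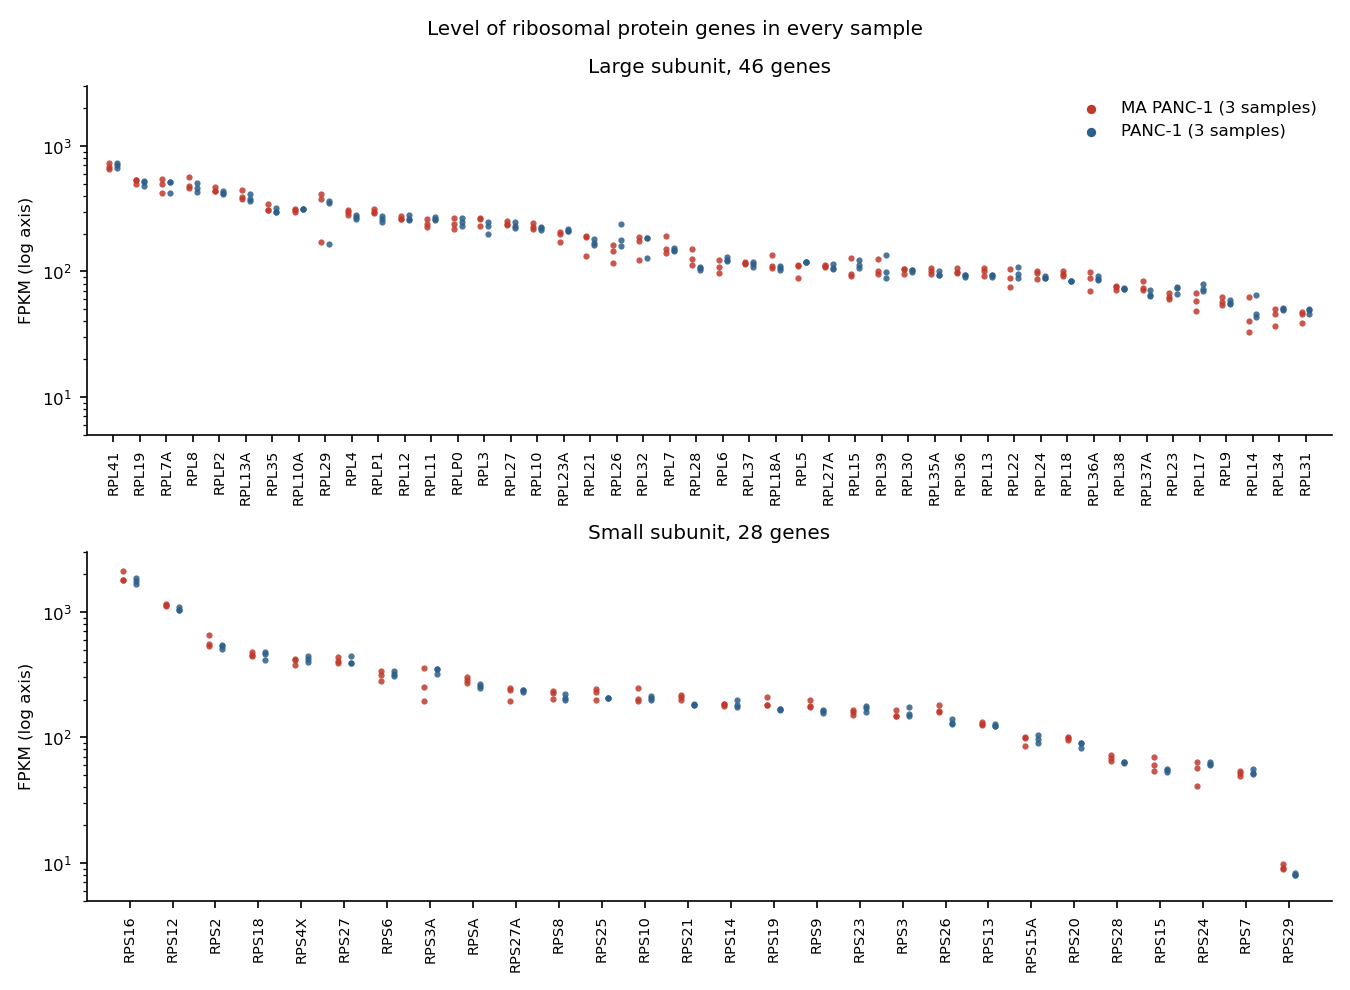
FPKM (log axis) of 74 of the 77 genes in every sample, with large subunit genes above and small subunit genes below, ordered by mean level; red points are the 3 MA PANC-1 samples and blue points the 3 PANC-1 samples. RPS16 and RPS12 lie above 1000 FPKM and RPS29 below 10 FPKM in all 6 samples, and red and blue points of most genes lie side by side.

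RPS16 was the most abundant of the 77 genes by a wide margin. The RPS16 protein sits in the head of the small subunit near the peptidyl site. It measured 1782, 2121 and 1777 FPKM in MA PANC-1 and 1763, 1861 and 1677 FPKM in PANC-1, so that the highest value was that of MA PANC-1 2 and the groups overlapped. Its counts averaged 364820 per sample, against 118178 for RPL4, the next gene by count, and made up 9.46% to 10.9% of all ribosomal protein counts. RPS16 lies on the minus strand of chromosome 19.

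After RPS16 came RPS12, another head protein of the small subunit, which measured 1159, 1110 and 1134 FPKM in MA PANC-1 and 1043, 1086 and 1038 FPKM in PANC-1. All 3 MA PANC-1 values of RPS12 lay above all 3 PANC-1 values, with a log2 fold change of 0.14 (95% interval -0.04 to 0.32, unadjusted p = 0.110, adjusted p = 0.510). RPS2 and RPS18 were also among the 5 highest in the small subunit, with mean levels of 552 and 455 FPKM. In the large subunit the 5 highest were RPL41 (694 FPKM), which encodes the shortest ribosomal protein, then RPL19 (514 FPKM), RPL7A (485 FPKM), RPL8 (481 FPKM), which lies beside the peptidyl transferase centre, and the stalk gene RPLP2 (437 FPKM).

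The lowest levels were those of RPL31 (46.2 FPKM), RPL34 (47.2 FPKM) and RPL14 (48.1 FPKM) in the large subunit and of RPS7 (52.5 FPKM), RPS24 (57.7 FPKM) and RPS29 (8.70 FPKM) in the small subunit. The highest and the lowest mean differed 210-fold. FPKM divides a count by a length, and that length matters here. For the 11454 genes whose mean reached 1 FPKM, a length is implied by a gene's count and FPKM together. It followed the length of all GENCODE 29 exons of the gene laid together (r = 0.99 on log2 values across genes, which are not replicates). This was closer than its relation to the mean length of the gene's transcripts (r = 0.74). For RPS29 the exons together span 9845 bases, while its shortest principal transcript has 296 bases.

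The order of levels was therefore computed again per kilobase of the shortest principal transcript. RPS16 stayed highest at 10420 CPM per kilobase, CPM being the counts scaled to a common library total, and RPL41 moved from 3rd to 2nd with 1956. RPS29 moved from 77th to 68th with 345, and the lowest became RPS28, a protein of the mRNA exit channel, with 126. The range was 82.8-fold on this scale. This scale rests on annotated lengths too. The transcript length used was 1326 bases for RPS28, against 296 for RPS29, and it reached 7686 bases among the 77 genes. The lowest ranks and the range on this scale therefore also depend on the length used. The FPKM levels of genes with long alternative exons are thus set low by the length used, and comparisons between samples, in which the length cancels, are not touched by it.

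The comparison of MA PANC-1 with PANC-1 asked whether the treatment altered the mRNA of the ribosome's proteins. No ribosomal protein gene passed the adjusted threshold of 0.05 in edgeR's quasi-likelihood test, where 7 of 17774 genes tested did (0.0394%). None was a differentially expressed gene (DEG) by the thresholds of the study, a change of 2-fold or more with an unadjusted p under 0.05, where 342 were (1.92%). DESeq2 and limma gave 0 of 77 past the adjusted threshold as well. The smallest adjusted p among them was 0.388 in edgeR, for RPS26, 0.127 in DESeq2 and 0.343 in limma on log2(FPKM + 0.1). At an unadjusted p under 0.05, 8 of 77 were higher after MA (10.4%, against 5.37% of all genes tested) and 2 were lower (2.6%, against 5.86%). The split was 13 and 1 once each library's GC trend was taken out (all genes 7.52% and 6.31%), and 3 and 2 in DESeq2 (all genes 5.55% and 6.54%). The total of 10 moved when 1 library was left out. It was 5, 8 and 13 without MA PANC-1 1, 2 and 3, and 2, 4 and 1 without PANC-1 1, 2 and 3. The shares of all genes moved as well. Higher genes made up 3.8%, 4.51% and 8.39% without MA PANC-1 1, 2 and 3, and lower genes 4.13%, 5.81% and 9.69%. Without PANC-1 1, 2 and 3 the higher shares were 3.1%, 3.52% and 3.26%, and the lower shares 3.53%, 4.2% and 3.49%.

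The 77 log2 fold changes had a median of 0.07, with the lowest at -0.40 (RPL26), and 53 of 77 (68.8%) were above 0. All genes tested had a median of -0.00 and 49.8% above 0, but abundant genes in general leaned the same way. Among the 4412 genes at or above the mean FPKM of RPS29, a set chosen after the values were seen, the median was 0.08, 64.2% were above 0, and 10.7% were higher and 4.62% lower at an unadjusted p under 0.05. The ribosomal protein genes thus lay near the share of other abundant genes in both directions. Their groups did not overlap in 21 of 77 genes with higher MA PANC-1 values (27.3%, against 10.6% of all and 18.7% of the abundant genes) and in 4 with lower values (5.19%, against 10.2% and 7.96%). The sum of 25 became 18 with library size alone as the normalization (23.4%, against 20.0% of all genes). It became 39 without MA PANC-1 3 and again when PANC-1 2 was left out, where the smaller groups raise the share among all genes as well. Without MA PANC-1 3 there were 28 with higher and 11 with lower values, together 50.6% against 39.5% of all genes. Without PANC-1 2 there were 35 and 4, again 50.6%, against 31.5% of all genes.

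The genes were measured closely. The median standard error of the log2 fold change was 0.10, and the median SD within a group, on log2 CPM, was 0.10 for the 77 genes against 0.26 for all genes tested and 0.16 for the abundant ones. For 69 of the 77 genes the 95% interval of the change lay wholly within 1.5-fold in either direction, and for 75 within 2-fold. Among the genes outside 1.5-fold were RPL14, RPL17, RPL26, RPL28, RPL29, RPS3A and RPS26, and RPL29 was also outside 2-fold.

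**Figure D2:**
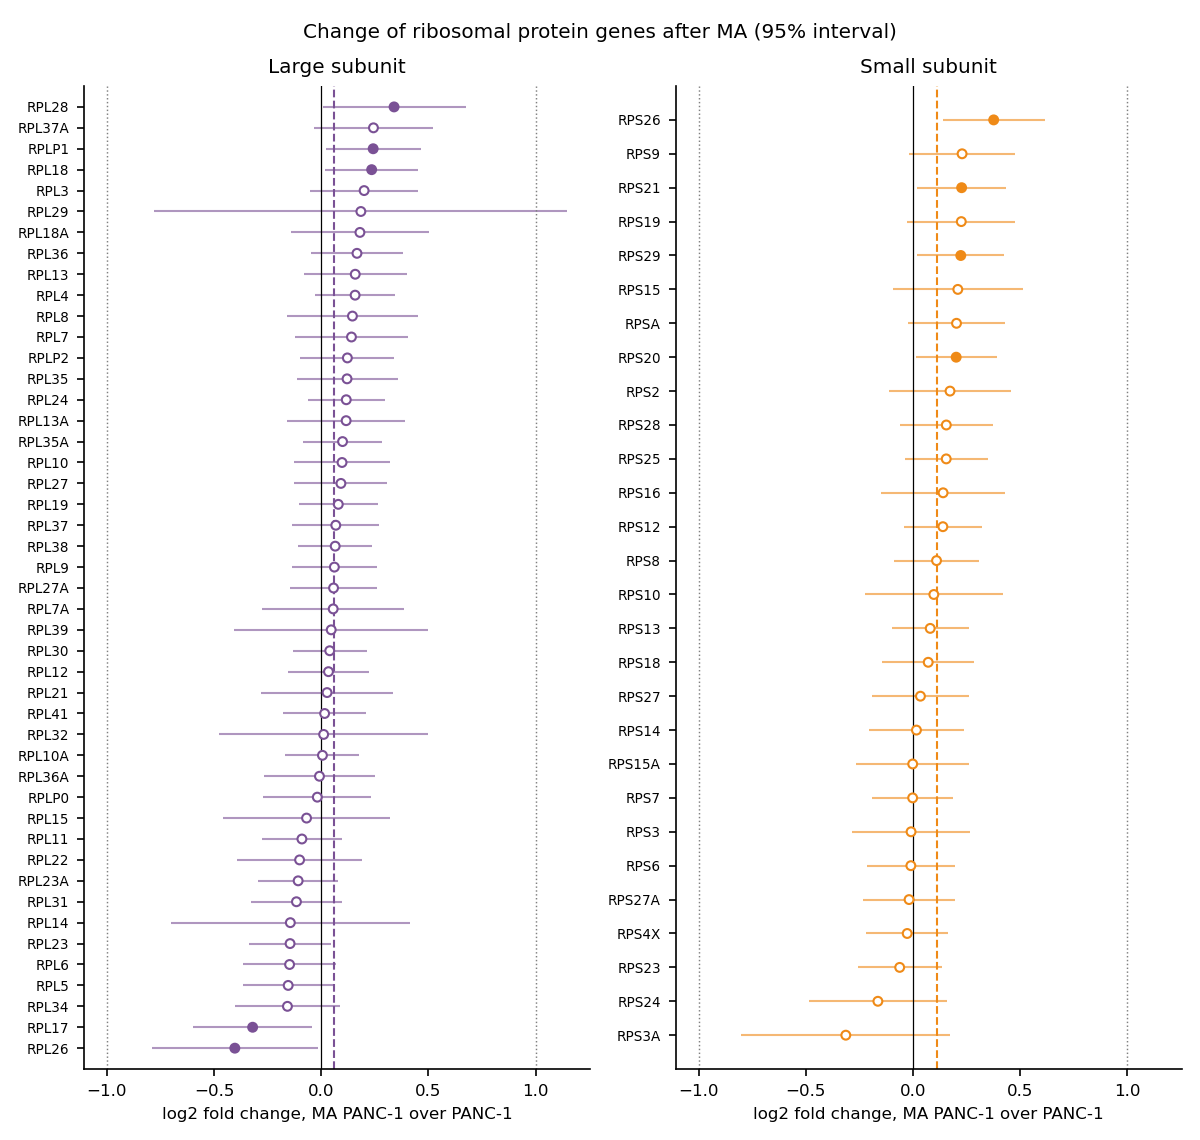
Log2 fold change of 74 of the 77 genes (MA PANC-1 over PANC-1, n = 3 each) with its 95% interval from edgeR, large subunit left and small subunit right; filled points have an unadjusted p under 0.05, dashed lines are the medians over all genes of a subunit (0.06 and 0.11) and dotted lines mark 2-fold. No point lies beyond 2-fold, and of the intervals drawn that of RPL29 alone crosses it.

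The large and the small subunit were compared as the next question, since the ribosome needs them in equal numbers. The median log2 fold change was 0.06 over the 46 large subunit genes and 0.11 over the 31 small subunit genes, a difference of 0.05. In single samples, the median deviation of the small subunit genes from their own mean over the 6 samples exceeded that of the large subunit genes by 0.02, 0.11 and 0.01 in MA PANC-1 1, 2 and 3, and by -0.02, -0.00 and -0.02 in PANC-1 1, 2 and 3. The 3 MA PANC-1 values all lay above the 3 PANC-1 values. The difference was largest in MA PANC-1 2, and it was smaller than 0.03 in either direction in each of the other 5 samples. Without MA PANC-1 2 the medians were 0.01 for the large and 0.05 for the small subunit. The difference of 0.05 fell most without PANC-1 1, to 0.0121.

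The ratio of summed large to summed small subunit counts was 1.17, 1.12 and 1.20 in MA PANC-1 1, 2 and 3 and 1.21, 1.17 and 1.19 in PANC-1 1, 2 and 3. The means were 1.16 ± 0.0382 and 1.19 ± 0.0225 (SD, n = 3 each), and the groups overlapped. On FPKM the ratio was 0.967 ± 0.0259 and 0.994 ± 0.0114 (SD, n = 3 each), with 0.992 in MA PANC-1 3 above 0.985 in PANC-1 2. Leaving RPS16 out of the small subunit gave count ratios of 1.49 ± 0.0289 and 1.51 ± 0.0295.

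By subunit, 3 of 46 large subunit genes (6.52%) and 5 of 31 small subunit genes (16.1%) were higher at an unadjusted p under 0.05, and 2 large (4.35%) and 0 small subunit genes were lower. Among all genes tested 5.37% were higher and 5.86% lower, and among the abundant genes 10.7% and 4.62%, so the large subunit lay between these shares for higher values. The groups did not overlap with higher MA PANC-1 values in 10 large (21.7%) and 11 small subunit genes (35.5%), and with lower values in 4 large (8.70%) and 0 small subunit genes, beside 10.6% and 10.2% of all and 18.7% and 7.96% of the abundant genes. These counts are descriptions, and no test of the subunits against each other was made, because genes of 1 library are not replicates of a treatment.

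**Figure D3:**
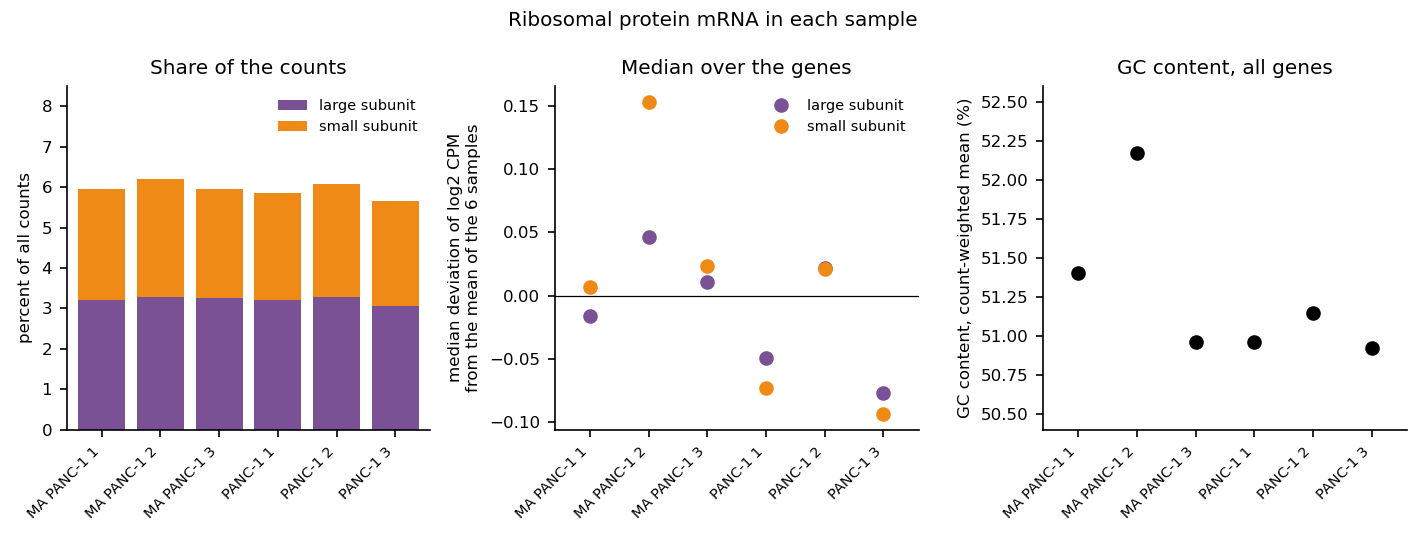
Left, percent of all counts in large and small subunit genes (stacked bars from 0) in each of the 6 samples; middle, median over each subunit's genes of the deviation of log2 CPM from the mean of the 6 samples; right, count-weighted mean GC content of all genes in each sample. MA PANC-1 2 has the highest small subunit median (0.15) and the highest GC content (52.2%) of the 6.

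Among the small subunit genes, RPS26 had the smallest p of all 77. RPS26 lies at the mRNA exit channel, where it touches the mRNA upstream of the start codon, and its gene is on chromosome 12. It measured 162, 179 and 160 FPKM in MA PANC-1 1, 2 and 3 and 130, 128 and 139 FPKM in PANC-1 1, 2 and 3. Every MA PANC-1 value lay above every PANC-1 value, with a log2 fold change of 0.38 (SE 0.10, 95% interval 0.14 to 0.61, unadjusted p = 0.00698, adjusted p = 0.388 in edgeR). It was the only one of the 10 genes under 0.05 that kept an unadjusted p under 0.05 in all 6 fits that left out a sample, where its log2 fold change lay between 0.28 and 0.43.

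RPS29, RPS21 and RPS20, all of the small subunit, were also higher at an unadjusted p under 0.05. RPS29 measured 8.89, 9.17 and 9.74 FPKM in MA PANC-1 and 8.03, 8.35 and 8.04 FPKM in PANC-1 (log2 fold change 0.22, unadjusted p = 0.0347). RPS21 measured 198, 216 and 209 FPKM in MA PANC-1 and 186, 181 and 180 FPKM in PANC-1 (log2 fold change 0.23, unadjusted p = 0.0366). RPS20 measured 99.0, 95.8 and 101 FPKM in MA PANC-1 and 90.2, 90.6 and 82.9 FPKM in PANC-1 (log2 fold change 0.20, unadjusted p = 0.0390). In each of the 3 genes the groups did not overlap, the adjusted p was from 0.434 to 0.436, and the unadjusted p stayed under 0.05 in 2, 3 and 1 of the 6 fits that left out a sample. With the replicate number as a block, RPS20 was no longer under the unadjusted threshold.

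In the large subunit RPLP1, RPL18 and RPL28 were higher at an unadjusted p under 0.05. RPLP1 forms, with RPLP0 and RPLP2, the acidic stalk that recruits the translation factors. Its values were 298, 312 and 293 FPKM in MA PANC-1 and 247, 276 and 260 FPKM in PANC-1, with no overlap and a log2 fold change of 0.24 (unadjusted p = 0.0365, adjusted p = 0.435). Neither of its partners was under the unadjusted threshold: RPLP0, the stalk's base, had a log2 fold change of -0.02 (95% interval -0.27 to 0.23) with 217, 237 and 264 FPKM in MA PANC-1 and 248, 267 and 230 FPKM in PANC-1, and RPLP2 had 0.12 (95% interval -0.10 to 0.34), which was 0.04 without MA PANC-1 2. The intervals of the 3 stalk genes overlap, and a difference between them was not tested.

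RPL28 measured 125, 152 and 113 FPKM in MA PANC-1 and 103, 109 and 106 FPKM in PANC-1, a log2 fold change of 0.34 (unadjusted p = 0.0470, adjusted p = 0.441) that was 0.17 without MA PANC-1 2 (the lowest of the fits that left out a sample) and 0.22 with the GC trend removed. RPL18 measured 95.3, 101 and 91.2 FPKM in MA PANC-1 and 83.4, 84.2 and 83.1 FPKM in PANC-1, with a log2 fold change of 0.23 (unadjusted p = 0.0368, adjusted p = 0.435), again without overlap. With the GC trend removed it was 0.11 and no longer under the unadjusted threshold. RPL37A, RPS9 and RPS19 had like changes of 0.24, 0.23 and 0.23 without overlap, and unadjusted p-values of 0.0779, 0.0632 and 0.0713. Without MA PANC-1 2 these changes were 0.12, 0.12 and 0.11. The exact permutation test over the 6 samples gave 0.1 for every gene without overlap, which is the smallest p that 3 against 3 samples allow.

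RPL26 and RPL17, both of the large subunit, were lower at an unadjusted p under 0.05. RPL26 measured 146, 117 and 161 FPKM in MA PANC-1 and 159, 178 and 237 FPKM in PANC-1. The groups overlapped, PANC-1 3 was far above the rest, and the log2 fold change of -0.40 (SE 0.16, 95% interval -0.79 to -0.02, unadjusted p = 0.0426, adjusted p = 0.439) was -0.23 without PANC-1 3. With the GC trend removed the change of RPL26 was -0.30 and no longer under the unadjusted threshold. RPL17 measured 67.3, 48.1 and 58.5 FPKM in MA PANC-1 and 79.8, 70.4 and 71.9 FPKM in PANC-1, without overlap, for a log2 fold change of -0.32 (SE 0.12, 95% interval -0.60 to -0.04, unadjusted p = 0.0286, adjusted p = 0.431).

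RPL17 shares its exons with a read-through gene, RPL17-C18orf32, on the same strand of chromosome 18, to which 2659, 1551 and 3069 counts went with MA, against 0, 3353 and 2501 in PANC-1. The 0 in PANC-1 1 stands beside the highest RPL17 count of all samples, 16511. Summed over every gene that overlaps it, RPL17 reached 14180, 10864 and 13403 counts with MA, against 16790, 17233 and 15320 in PANC-1, and its log2 fold change was -0.20 (unadjusted p = 0.169) with overlapping groups. RPS10 also had an overlapping gene of at least 10% of its counts in a sample, and its log2 fold change was 0.10 both before and after summing and -0.07 without MA PANC-1 2.

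Of the other genes whose MA PANC-1 values all lay below the PANC-1 values, RPL5 measured 111, 89.2 and 113 FPKM in MA PANC-1 and 118, 120 and 118 FPKM in PANC-1. Its log2 fold change was -0.15 (95% interval -0.37 to 0.06, unadjusted p = 0.131), which was -0.09 without MA PANC-1 2 and 0.01 with the GC trend removed. RPL11, its partner in the 5S particle, measured 239, 226 and 260 FPKM in MA PANC-1 and 257, 273 and 261 FPKM in PANC-1, with overlap and a log2 fold change of -0.09 (95% interval -0.28 to 0.10, unadjusted p = 0.291). RPL23 and RPL23A had -0.15 and -0.11 with unadjusted p-values of 0.117 and 0.218, and the latter was -0.07 without MA PANC-1 2. RPL34, next to RPL26 and RPL17 the lowest in the large subunit, had -0.16 with overlapping groups, and -0.08 without that library.

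RPS18, RPS27A, RPL11, RPL19 and RPL32 are among the housekeeping proteins that the study reports as stable with and without MA. Their mRNA was therefore looked at one by one. Their log2 fold changes were 0.07 for RPS18 (95% interval -0.14 to 0.29), -0.02 for RPS27A (-0.23 to 0.20), -0.09 for RPL11, 0.08 for RPL19 (-0.11 to 0.26) and 0.01 for RPL32 (-0.48 to 0.50). For RPS18, RPS27A, RPL11 and RPL19 the interval stayed within 1.5-fold, as did that of RPS6, the S6 kinase substrate, at -0.01 (-0.21 to 0.20). That of RPL32 also did so but was wider, and its values were 189, 173 and 123 FPKM in MA PANC-1 and 184, 128 and 185 FPKM in PANC-1, with 1 low sample in each group. RPSA, also known as the laminin receptor, measured 288, 304 and 273 FPKM in MA PANC-1 and 249, 265 and 258 FPKM in PANC-1, without overlap (log2 fold change 0.20, unadjusted p = 0.0714, and 0.12 without MA PANC-1 2).

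RPL32 was not alone in swinging between samples of the same group. In 38 of the 77 genes the range within either group stayed under 0.25 on the log2 scale, but RPL29 reached 1.38 in MA PANC-1 and 1.16 in PANC-1. RPL29 measured 381, 415 and 172 FPKM in MA PANC-1 and 354, 362 and 164 FPKM in PANC-1, so that replicate 3 was low in both groups. RPS3A measured 354, 253 and 193 FPKM in MA PANC-1 and 317, 353 and 351 FPKM in PANC-1, with MA PANC-1 2 and 3 below all others and a log2 fold change of -0.31 (95% interval -0.80 to 0.17) that was -0.11 without MA PANC-1 3 and -0.55 without MA PANC-1 1. After RPS3A the lowest changes in the small subunit were -0.16 for RPS24, which was -0.03 without MA PANC-1 2 and -0.28 without MA PANC-1 3, and -0.06 for RPS23, both with overlapping groups.

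RPL14 was high in MA PANC-1 3 and PANC-1 1, at 62.0 and 64.4 FPKM, against 33.1 to 45.3 FPKM in the other 4 samples. RPL39, a protein inside the polypeptide exit tunnel of the large subunit, was high in MA PANC-1 2 and PANC-1 1, at 126 and 135 FPKM, against 89.0 to 101 FPKM elsewhere. RPL15 had its low values, 92.1 and 95.1 FPKM, in MA PANC-1 1 and 3. Different libraries were low or high from gene to gene, and the cause of these swings was not tested.

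**Figure D4:**
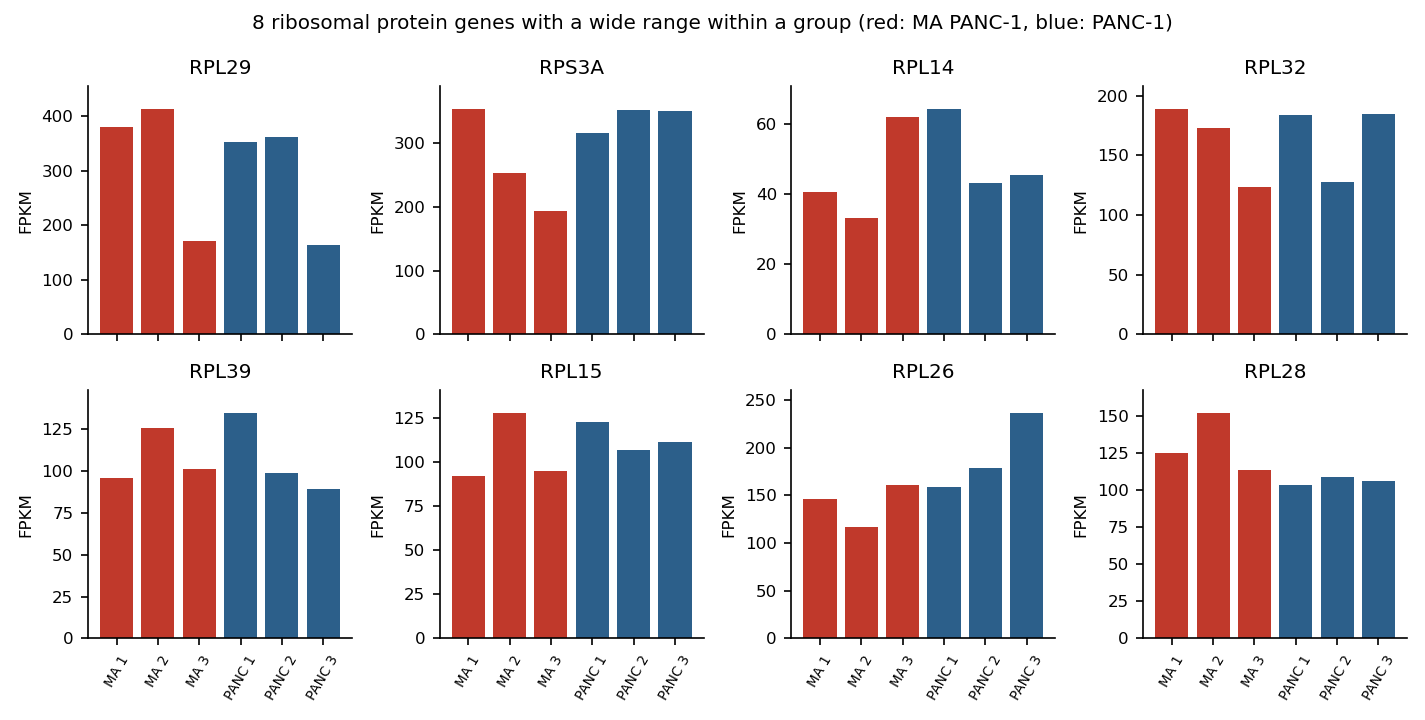
FPKM (bars from 0) in each of the 6 samples of 8 genes with a wide range of log2 values within a group; red bars are MA PANC-1 1 to 3, blue bars PANC-1 1 to 3. RPL29 is low in replicate 3 of both groups, and RPL32 in MA PANC-1 3 and PANC-1 2.

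The genes' changes moved with GC content. The GC content of a gene, taken as the mean over its GENCODE 29 transcripts, ranged from 42.9% to 63.6% over the 77 genes. Its correlation with the log2 fold change was r = 0.53 across the 77 genes, which share the same 6 libraries, against r = 0.16 across the 17721 genes tested that have a GC value. The middle gene aside, in the 38 genes with the higher GC content the median log2 fold change was 0.12 and 34 were above 0, and in the 38 with the lower GC content the median was -0.00 and 18 were above 0. The 4 genes with MA PANC-1 values all below PANC-1 were all among the latter.

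Within single libraries, the deviation of the 77 genes correlated with GC content at r = 0.66 in MA PANC-1 2, 0.13 in MA PANC-1 1 and -0.23 in MA PANC-1 3, and at -0.36, -0.24 and -0.38 in PANC-1 1, 2 and 3. Without MA PANC-1 2 the correlation of the log2 fold change with GC content was r = 0.23, the median change 0.03, and 49 of 77 genes were above 0. When the GC trend of each library was removed, the medians were 0.01 for the large and 0.06 for the small subunit. At an unadjusted p under 0.05, 13 genes were then higher and 1 lower (7.52% and 6.31% of all genes). Higher and lower values without overlap were found in 21 and 2 genes (12% and 9.86% of all genes). Among the genes described above whose changes were at least 0.1 in either direction, RPS9 was then at 0.10, RPS19 at 0.11 and RPLP2 at 0.01. RPL34 was at -0.02, RPS24 and RPL23 were at -0.09, and RPS3A was at -0.17. When length was removed as well, the median of the large subunit was -0.01 and that of the small subunit 0.04.

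**Figure D5:**
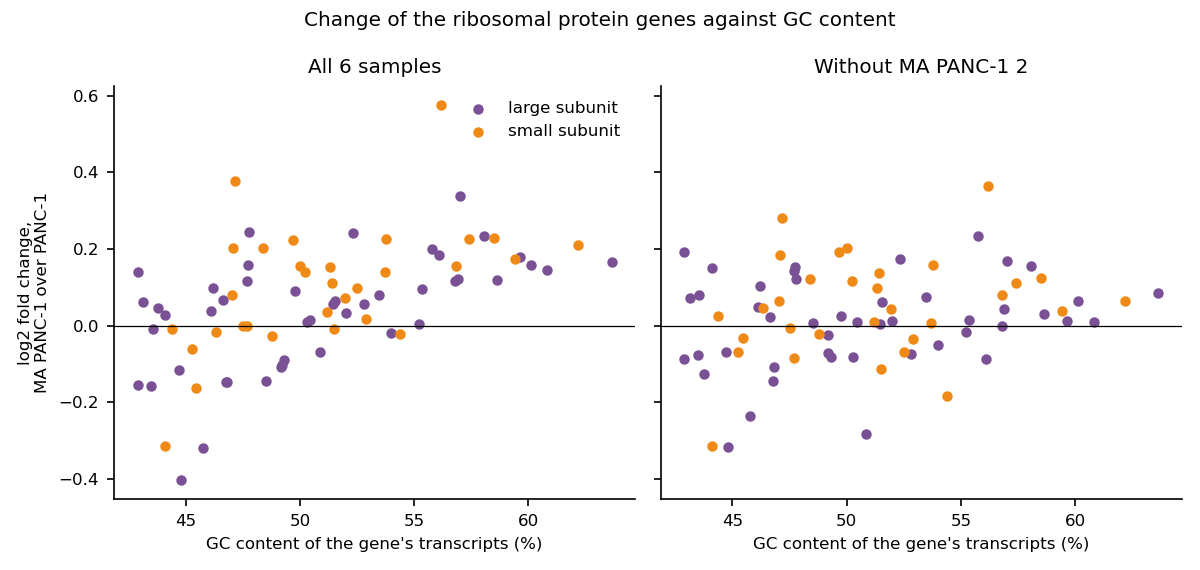
Log2 fold change of each of the 77 genes (MA PANC-1 over PANC-1) against the mean GC content of its transcripts, with all 6 samples (left) and without MA PANC-1 2 (right); purple points are large and orange points small subunit genes. The upward lean on the left (r = 0.53) is flatter on the right (r = 0.23).

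Pseudogenes can take reads from their parent genes, and 76 of the 77 genes have pseudogenes of their name in the table. Their counts were small for most, but reached at least 10% of the parent's counts in some sample for 10 genes, with the highest share, 113%, at RPL9. RPL9 had 19277 to 23472 counts per sample and its pseudogenes 20383 to 24702. Summing parent and pseudogenes gave RPL9 a log2 fold change of 0.09 in place of 0.06, RPL7 0.05 in place of 0.14, and RPL21 0.07 in place of 0.03. The change of RPL7 was also 0.02 without MA PANC-1 3 and 0.30 with the GC trend removed. That removal gave 0.22 for RPL9 and 0.15 for RPL21, and RPL7 and RPL9 were then under the unadjusted threshold. The levels of these genes are therefore uncertain, while 8 genes higher and 2 lower at an unadjusted p under 0.05 were also counted with pseudogenes summed.

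Ribosomal protein genes outside the name rule were measured beside them. FAU, which encodes RPS30, measured 188 FPKM in PANC-1 and 216 FPKM in MA PANC-1 on average (log2 fold change 0.24, unadjusted p = 0.0722, and 0.13 without MA PANC-1 2 or with the GC trend removed). The small subunit scaffold RACK1 had -0.06. Of the paralogs, RPL36AL was the most abundant at 154 and 143 FPKM (-0.07), followed by RPL26L1 at 47.9 and 45.4 FPKM (-0.04) and RPL39L at 11.5 and 11.1 FPKM (-0.01). RPS27L, a paralog of RPS27, had 4.23 and 4.26 FPKM (0.04), and RPL22L1 8.22 and 6.25 FPKM (-0.36, unadjusted p = 0.109). The change of RPL22L1 was -0.07 with the GC trend removed, and from -0.55 to -0.24 when 1 sample was left out. RPL7L1 had 11.3 and 17.3 FPKM with overlapping groups (0.64, unadjusted p = 0.0443, adjusted p = 0.441, and 0.38 without MA PANC-1 3), and no other gene of this list was under 0.05. RPL10L was listed at the value for no reads in all samples and RPL3L at a mean under 0.02 FPKM, and neither was tested.

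Translation factors had medians close to that of the ribosomal protein genes. EEF1A1, which brings aminoacyl-tRNA to the ribosome, measured 2058 FPKM in PANC-1 and 1968 in MA PANC-1 on average, with a log2 fold change of -0.03. EEF2, which moves the ribosome along the mRNA, had 0.24 (unadjusted p = 0.101), or 0.09 without MA PANC-1 2 and 0.11 with the GC trend removed, and the cytoplasmic poly(A) binding protein gene PABPC1 had 0.07. Of the 9 elongation factor genes, 1 was higher (11.1%, against 5.37% of all genes tested) and 0 were lower by the unadjusted threshold, with a list median of 0.05 that was 0.00 without MA PANC-1 2. It was EIF5A (0.29, unadjusted p = 0.0402), at 0.19 without MA PANC-1 2 and also with the GC trend removed. Of this list 0 were higher without MA PANC-1 1 or 2 or PANC-1 1 or 2 (all genes 3.1% to 4.51%). Without MA PANC-1 3, 3 were higher (all genes 8.39%). Of the 36 initiation factor genes, 6 were higher (16.7%, against 5.37% of all genes tested) and 2 lower (5.56%, against 5.86%), with a median of 0.07, again 0.00 without MA PANC-1 2. EIF5, which triggers GTP hydrolysis at the start codon, had the smallest p of these lists, at 10.2 FPKM in PANC-1 and 15.3 FPKM in MA PANC-1 (log2 fold change 0.61, SE 0.09, unadjusted p = 0.000286, adjusted p = 0.170), and EIF1, the scanning factor, had 0.36 (unadjusted p = 0.00389, adjusted p = 0.376). All 3 MA PANC-1 values of both genes lay above the PANC-1 values.

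Genes that build the ribosome had more lower than higher values. Of 47 genes for ribosome assembly and rRNA processing, 0 were higher and 7 lower at an unadjusted p under 0.05 (14.9% lower, against 5.86% of all genes tested), the groups did not overlap in 1 with higher and 15 with lower MA PANC-1 values (31.9% lower, against 10.2%), and the median log2 fold change was -0.11, beside -0.00 for all genes tested. NMD3, the export adaptor of the large subunit, measured 10.5 FPKM in PANC-1 and 7.36 FPKM in MA PANC-1 (log2 fold change -0.48, SE 0.11, unadjusted p = 0.00387, adjusted p = 0.376), and RRS1, which loads the 5S particle, 33.4 and 26.0 FPKM (-0.33, SE 0.09, unadjusted p = 0.00667, adjusted p = 0.388). The list of 47 also holds a pseudogene of NHP2, which counts in its shares and median. No gene of this list passed the adjusted threshold. MA PANC-1 2 had the lowest log2 CPM of the 6 samples in 21 of the 47 genes. Without this library 1 gene was higher and 9 were lower (all genes 4.51% and 5.81%), and the median was -0.10. Without MA PANC-1 3, 2 were higher and 13 lower (all genes 8.39% and 9.69%). Leaving out PANC-1 1 or 2 gave 4 lower genes each, where 3.53% and 4.2% of all genes were lower. The groups did not overlap in 11 genes with higher and 20 with lower values without MA PANC-1 3 (all genes 19.8% and 19.7%). Without PANC-1 2 there were 7 and 18 (all genes 15.2% and 16.3%). With the GC trend removed 2 were higher and 8 lower (all genes 7.52% and 6.31%), and the median was -0.06. The median GC content of the list was 47.0%, lower than the 50.3% of the ribosomal protein genes.

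RNA polymerase I and its factors numbered 15 with a value, of which 0 were higher and 2 lower by the unadjusted threshold (13.3% lower, against 5.86% of all genes tested), with a median of -0.00. These were its subunit gene TWISTNB (-0.52, unadjusted p = 0.0268) and its termination factor gene TTF1 (-0.41, unadjusted p = 0.0409), and TWISTNB was at -0.24 with the GC trend removed. Without MA PANC-1 1, PANC-1 1 or PANC-1 3, 1 gene of this list was higher and 0 were lower. The shares of all genes that were lower were then 4.13%, 3.53% and 3.49%. Without MA PANC-1 3, 1 was higher and 3 were lower (all genes 8.39% and 9.69%). The 9 other known TOP transcripts found in the table include noncoding snoRNA host transcripts and RACK1, which is also in the list above. They had 0 in either direction and a median of -0.20, with 8 of 9 below 0. Lower values without overlap stood in 2 (22.2%, against 10.2% of all genes tested). In 6 of the 9, MA PANC-1 2 was the lowest sample, and the median was -0.12 without it and -0.06 with the GC trend removed. Without MA PANC-1 3, 3 of the 9 were lower (all genes 9.69%), and 1 was without PANC-1 1 or PANC-1 3 (3.53% and 3.49%). NACA was at -0.28 (unadjusted p = 0.0628) and NAP1L1 at -0.20 (unadjusted p = 0.0751). NAP1L1 was at -0.12 without MA PANC-1 2, and its direction turned with the GC trend removed, to 0.07. The 78 mitochondrial ribosomal protein genes, which serve a separate ribosome, had 4 higher (5.13%, against 5.37% of all genes tested) and 0 lower and a median of 0.06, and 10 were higher with the GC trend removed, where 7.52% of all genes tested were. Among them MRPL23 had 0.37 (unadjusted p = 0.00921) and MRPL41 0.63 (unadjusted p = 0.00933), both with an adjusted p of 0.388. They were 0.24 and 0.42 with the GC trend removed, and MRPL41 was 0.39 without MA PANC-1 2.

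The regulators of TOP translation showed no call past the adjusted threshold either. MTOR had a log2 fold change of 0.12 (unadjusted p = 0.277, and 0.04 without MA PANC-1 2) and LARP1, which binds the TOP tract, 0.03 (unadjusted p = 0.694). Of the 18 genes of this list, 1 was higher (5.56%, against 5.37% of all genes tested) and 2 lower (11.1%, against 5.86%) by the unadjusted threshold, with a list median of 0.11 that was 0.04 without MA PANC-1 2 and 0.05 with the GC trend removed. The lower ones were AKT1S1, an mTORC1 inhibitor (-0.29, unadjusted p = 0.0114), and LARP4 (-0.57, unadjusted p = 0.0178, and -0.34 with the GC trend removed). MYC, a transcription factor for ribosomal genes, had 0.69 with an SE of 1.16, since its values spread over 2.93 log2 units within MA PANC-1 and 4.62 within PANC-1, and it ranged from 0.15 to 3.11 when 1 sample was left out. In the list of the 5S particle and its surveillance, 0 of 8 were higher and 2 lower (25% lower, against 5.86% of all genes tested), with a list median of -0.14 that was -0.08 without MA PANC-1 2 and -0.05 with the GC trend removed. The lower ones were RRS1 and MDM4, the gene of the partner of MDM2 (-0.44, unadjusted p = 0.0242, and -0.27 with the GC trend removed), while MDM2 had -0.20 (unadjusted p = 0.365), or -0.02 without MA PANC-1 2 and 0.02 with the GC trend removed. Of these 8 genes, 1 was lower without MA PANC-1 1, PANC-1 2 or PANC-1 3, where 4.13%, 4.2% and 3.49% of all genes were.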

How the data were processed

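Poly(A) RNA of 6 samples was sequenced as strand-marked paired-end libraries. Per the submitters' processing notes, cutadapt 1.9, HISAT2 2.0.4 and StringTie 1.3.4d were used, beside edgeR and DESeq2. The authors deposited an FPKM value per gene and sample and an estimated count, a whole number that was not normalized, and 0.0001 stands for a gene without reads. Of 58825 rows, 47593 have the positions of GENCODE 29 (GRCh38). Coordinates printed are those of the RefSeq promoter table.

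The 17774 genes whose mean reached 0.1 FPKM, all 77 ribosomal protein genes among them, were tested with edgeR 4.0.16 (quasi-likelihood, TMM, R 4.3.3), two-sided, with p-values adjusted by Benjamini-Hochberg over all of them, and the model was tested on simulated data. The interval of a change used its SE, which is its size divided by the root of F. Groups do not overlap where all 3 values (log2 CPM) of 1 group exceed those of the other. The GC trend was removed by a smooth curve (span 0.5) fitted to genes averaging 100 counts or more. Alternatives were other normalizations, DESeq2 1.42.0, limma 3.58.1 on log2(FPKM + 0.1) or log2(FPKM + 1), other filters, trends removed, the replicate number as a block, halved counts, summed genes, and leaving out each sample. Summing pseudogenes was chosen after seeing the data.

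The genes and lists were chosen with earlier results of these data known. Genes named are, per subunit, the 5 highest and 3 lowest levels and the 3 largest and 3 smallest changes, the 8 smallest p-values, genes of set roles, 2 genes per further list, and genes that overlap others. RPS28, RPL4, RPL29, RPS19, RPL15, RPL39, RPL9, RPL7, RPL21, RPL23, RPL23A and RPS10 were added after their values were seen. A few genes are counted in the totals but not reported here by name. Proteins were not analysed here.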

Additional observations from a re-analysis of the deposited data

How the results depend on the processing

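No ribosomal protein gene passed an adjusted p of 0.05 under the 14 alternatives that kept all 6 samples or the 6 that left out 1. The median change of the 77 genes stayed above 0 under each, between 0.02 and 0.10. The median of all genes tested moved as well. It was 0.015 with the GC trend removed, beside 0.034 for the 77 genes. With GC and length trends removed it was 0.012, beside 0.023. The number of all genes past the adjusted threshold was 7, and it was 259 with DESeq2, 12 with a mean FPKM of at least 1, 33 with the GC trend removed, 31 with GC and length trends removed and 3 to 24 when 1 sample was left out. The replicate numbers paired the samples weakly at most. Correlations were 0.015 to 0.062 between same-numbered deviations and -0.044 to 0.019 between the others. With the replicate block 0 genes passed, and 1 with the GC trend removed as well. The block gave 8 higher and 2 lower ribosomal protein genes at an unadjusted p under 0.05. Among the higher ones RPL37A took the place of RPS20. The count of DEGs was 342, and it was 44 with limma on log2(FPKM + 1), 93 with a mean FPKM of at least 1, 569 without a filter, and 326 to 534 when 1 sample was left out. For ribosomal protein genes with an unadjusted p under 0.05 the count of 10 became 5 with DESeq2 and 1 to 13 when 1 sample was left out. The count of 25 without overlap became 27 to 39 when 1 sample was left out. With all 6 samples it fell to 18 with library size alone (23.4%, against 20.0% of all genes). It was 19 with GC and length trends removed (24.7%, against 21.5%). Both limma fits gave 20 (26.0%, against 19.9%), as did a mean FPKM of at least 1 (26.0%, against 22.8%). Of all genes, 5.37% were higher and 5.86% lower at that p, and 5.55% and 6.54% with DESeq2. Without 1 sample these shares were 3.1% to 8.39% and 3.49% to 9.69%. The share of all genes without overlap was 20.8%, and 28.0% to 39.5% without 1 sample. The excess of the small over the large subunit median, 0.05, was between 0.012 and 0.068 without 1 sample, the lowest without PANC-1 1. The share of the counts was 0.18 percentage points higher in MA PANC-1, and from 0.07 to 0.29 without 1 sample. Of the 79 genes with a fit that the rule for names takes or that were added, 28 changed sign under at least 1 alternative, none of them one with an unadjusted p under 0.05, and EIF5 (DESeq2 and both trend removals) and NMD3 (DESeq2) passed the adjusted threshold there. The causes were not tested. With the counts halved, 8 ribosomal protein genes were higher and 2 lower at an unadjusted p under 0.05, as with all counts.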
